A study of Mus musculus with 18 samples.

Results

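Chemokines are small secreted proteins that draw leukocytes along a gradient, and they act through G protein-coupled receptors on the cells they attract. They were described here in the denervated mouse whisker pad as protein-coding genes whose symbol begins with Ccl, Cxcl, Ccr or Cxcr and a digit, together with Cx3cl1, Cx3cr1, Xcl1, Xcr1, the 4 Ackr genes and Pf4. The rule found 68 of the 35150 genes in the table. Of these, 50 had a mean of at least 0.5 TPM (transcript abundance scaled to library size and transcript length) over all samples and are the members described: 37 ligands, 9 signalling receptors and 4 atypical receptors.

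The whisker pad is the skin and muscle of the snout that hold and move the whiskers, and its muscles are driven by the facial nerve. In each of 9 mice the nerve was cut on the right (the denervated side), whereas on the left (the sham side) the skin was opened and closed and the nerve was spared. A punch of skin and muscle was taken from each side at day 1, 3 or 7 after surgery, with 3 mice per day, so the 18 samples form 6 groups of 3 and the 2 sides of a mouse are not independent. Every lesion was on the right, so lesion and side cannot be told apart, and the sham side also carries a skin wound. Different mice were used at each day. The genotype of these mice is not given in the sources used here.

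A chemokine receptor couples to a heterotrimeric Gi protein and steers a leukocyte through Rac and integrins. Inflammatory ligands such as Ccl2 are induced by tissue damage, often through NF-κB, and recruit monocytes or neutrophils. Homeostatic ligands such as Cxcl12, Cxcl14 and Ccl27a are made constantly, by stroma or epidermis in skin. Atypical receptors bind and clear ligands without G protein signalling. In injured nerve and muscle, Ccl2 and its receptor Ccr2 are known for the entry of monocytes that become macrophages.

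Promoter sequences are shown for ligands that were high in single samples and for Cxcl10. Cxcl10 passed between the sides at day 7 alone, in a test it entered only through its denervated samples. It did not pass there in a fit blocked by mouse. Of the 50 members, 39 had a promoter in the RefSeq table (build GRCm38.p6), and Ccl2 and Ccl7 were not among them. Cxcl1, Cxcl2 and Cxcl3 encode neutrophil attractants that lie close together on chromosome 5. Their highest samples were not the same. Cxcl1 was highest in the denervated sample of replicate 2 at day 1, and Cxcl2 and Cxcl3 in the sham sample of replicate 3 at day 1. The last 100 bases before the start of each, on the plus strand, are given with matches to GGGNNTTTCC (either strand), the letters of an NF-κB-like site, in capitals. The windows are chr5:90891145-90891244 for Cxcl1, chr5:90903799-90903898 for Cxcl2 and chr5:90786001-90786100 for Cxcl3.
Cxcl1: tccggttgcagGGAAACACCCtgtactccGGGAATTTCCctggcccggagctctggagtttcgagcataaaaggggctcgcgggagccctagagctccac
Cxcl2: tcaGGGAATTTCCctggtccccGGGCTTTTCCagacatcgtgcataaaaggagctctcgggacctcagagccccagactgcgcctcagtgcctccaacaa
Cxcl3: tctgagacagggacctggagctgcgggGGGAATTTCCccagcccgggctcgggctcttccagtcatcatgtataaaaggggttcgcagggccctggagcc
Within the 250 bases before the start, 464 of 32851 promoters (1.41%) held this motif, among them 5 of the 39 members: Ccl9, Ccl20, Cxcl1, Cxcl2 and Cxcl3.

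Cxcl10 encodes an interferon-induced ligand of Cxcr3. Its last 230 bases before the start (chr5:92348890-92349119, minus strand) are given with the match to TTTCNNTTTC, the core of an interferon-stimulated response element searched on both strands, in capitals.
Cxcl10: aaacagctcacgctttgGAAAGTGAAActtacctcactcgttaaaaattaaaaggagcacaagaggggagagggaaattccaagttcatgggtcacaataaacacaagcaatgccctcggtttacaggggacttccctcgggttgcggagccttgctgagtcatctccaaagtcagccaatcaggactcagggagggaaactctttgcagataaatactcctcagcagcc
This motif was in 978 of the 32851 promoters (2.98%) and in 3 of the 39 members, Ccl19, Cxcl10 and Cxcl14. A match of letters is a description of the window and not a site of binding.

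The lesion was visible in the muscle regulator Myog, which was at 0.49 to 7.14 TPM in the 9 sham samples and at 16.6 to 200 TPM in the 9 denervated samples. The samples held an estimated 10500000 to 32700000 reads (median 14500000). In the median sample 1 TPM corresponded to about 7.87 reads for Ccl2, 11.4 for Cxcl10 and 41.5 for the longer Ccr2. Low levels thus rest on few reads, and on fewer for short transcripts than for long ones. The sham sample of replicate 1 at day 1 had the lowest value of 17 of the 50 members, counting Ccl27b, Ccl21b and Ccl4, where it was tied with other samples at 0. Its summed macrophage markers were 51.9 TPM against 86.1 to 384 TPM in the other 17 samples. The sham sample of replicate 3 at day 1 had the highest value of 15 members. Because these were bulk samples, fewer cells of a type and less RNA per cell cannot be told apart. The labelled tissue was present in every sample, with summed skeletal muscle markers at 3316 to 21550 TPM and summed keratinocyte markers at 4256 to 8642 TPM.

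The chemokines of the whisker pad were mostly those of skin and stroma, and a few members made up most of the level. TPM is already per transcript length, so levels can be compared between genes. The summed mean of the 50 members was 1162 TPM, of which 63.8% belonged to 5 genes and 85.1% to 12. Cxcl14, an epithelial ligand abundant in skin, alone made up 30.1%. It ranged from 271 to 411 TPM on the sham side (median 334) and from 279 to 461 TPM on the denervated side (median 347). Ccl27a, which encodes a ligand made by keratinocytes, was next, at 70.4 to 241 TPM in sham (median 160) and 74.7 to 244 TPM in denervated samples (median 148). The sides overlapped for both genes, and these ligands were more than 70 TPM in all 18 samples.

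Ligands of stroma and immune cells followed. Ccl8, a monocyte attractant, spanned 8.71 to 200 TPM in sham and 17 to 359 TPM in denervated samples, with medians of 76.7 and 91.7 TPM. Cxcl12, the stromal ligand of Cxcr4, was steadier, at 48.4 to 103 TPM in sham (median 73.7) and 58.6 to 130 TPM in denervated samples (median 99.8). Pf4, made by megakaryocytes and by some tissue macrophages, was at 5.86 to 114 TPM in sham (median 52.7) and 15.1 to 129 TPM in denervated samples (median 57.4). Cxcl13, an attractant of B cells, ranged from 8.43 to 136 TPM in sham and 17.2 to 168 TPM in denervated samples. In all of these the ranges of the 2 sides overlapped.

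Ccl6, a macrophage ligand, was at 7.88 to 85.1 TPM in sham and 14.7 to 95.6 TPM in denervated samples. Ccl11, or eotaxin, was at 11.4 to 57.4 TPM in sham and 22.5 to 58.7 TPM in denervated samples. Ccl21a, the ligand of Ccr7 that lymphatic vessels make, was at 3.25 to 55.8 TPM in sham and 10.7 to 82.4 TPM in denervated samples. The lowest sham value of Ccl8, Pf4, Cxcl13, Ccl6, Ccl11 and Ccl21a was that of replicate 1 at day 1 in each case. The highest receptor was Ackr1, an atypical receptor of venules that binds many inflammatory chemokines, at 11.7 to 38 TPM in sham and 19.1 to 41.4 TPM in denervated samples. Ccl27b was listed at 0 in 2 sham samples and reached 51.9 TPM in another, and Ccl27, a near-identical copy on an unplaced scaffold, reached 3.45 TPM, whereas Cxcl16, the membrane-bound ligand of Cxcr6, was at 13.2 to 39.1 TPM over all samples.

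**Figure D1:**
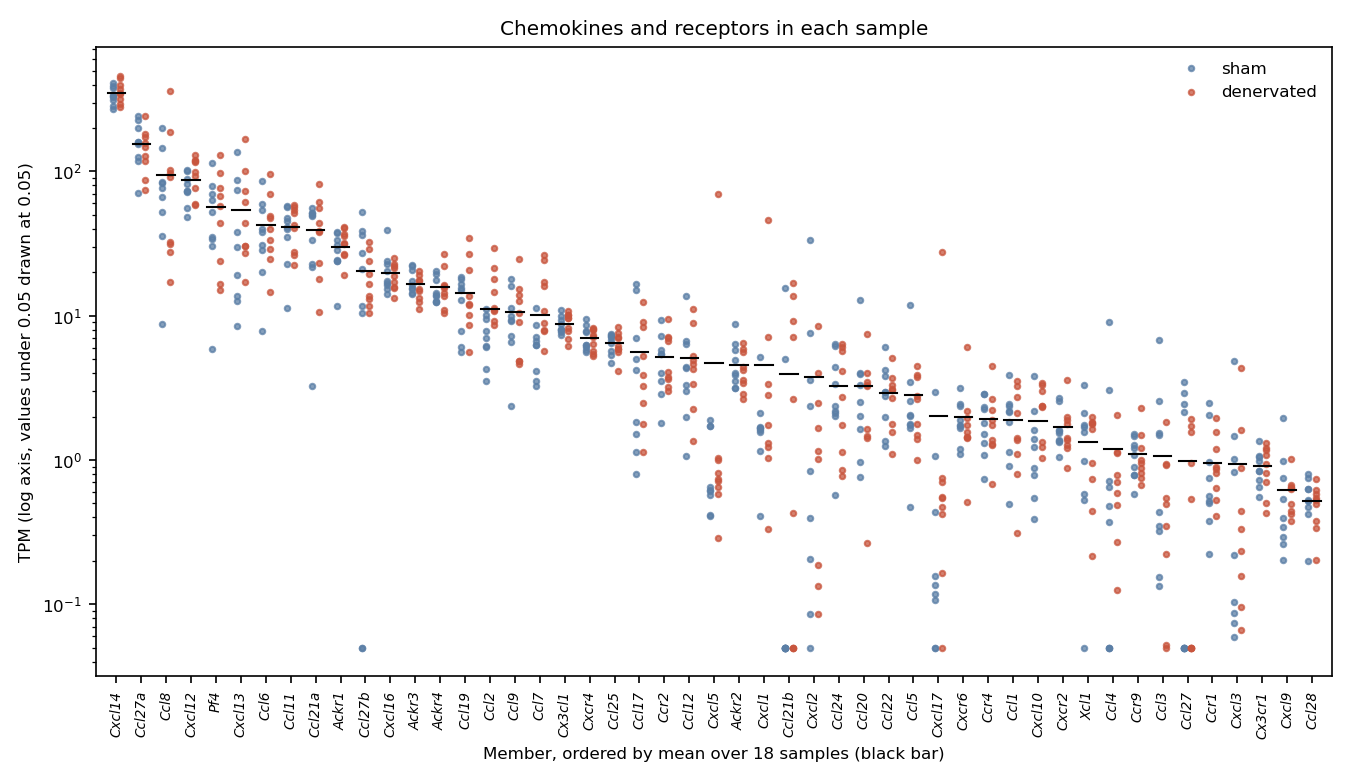
Level of 49 of the 50 members in TPM on a log axis, 1 point per sample, blue for the 9 sham and red for the 9 denervated samples, ordered by mean (black bar). The points of the 2 sides overlap for nearly every member, and the means fall from 349.8 TPM for Cxcl14 to 0.522 TPM for Ccl28.

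Of the 50 members, 18 had a mean of at least 10 TPM, 15 of them ligands, and 15 were under 2 TPM. The members of lowest level were Cxcl9 and Ccl28, at means of 0.615 and 0.522 TPM, and just outside the minimum lay Cxcr5, Ccr7, Xcr1 and Cxcr3, at 0.444, 0.409, 0.399 and 0.373 TPM. Thus the signalling receptors for Cxcl13, for Ccl19 and Ccl21, for Xcl1, and for Cxcl9 and Cxcl10 were all under the minimum. Yet Cxcl13 and Ccl21a were among the most abundant ligands, and the 4 atypical receptors were above the minimum. In all, 13 of the 18 genes left out had some value above 0, and 5 were listed at 0 in every sample. Those 5 were Ccl21c and copies of Ccl19, Ccl21a and Ccl21b, whose transcripts are near-identical to those of other members.

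The main question was whether chemokines differed between the denervated and the sham side. Over all days, 39 members passed the filter of at least 1 TPM in at least 47% of samples. Ccl2 alone passed the threshold (adjusted p under 0.05, limma with a term for the day), and it was higher on the denervated side. Over all genes tested, 3.1% passed in this comparison (457 of 14757). Of the 39 members, 25 were above 0 and 14 below, with a median log2 difference of 0.09, and the median over all genes was 0.01.

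Ccl2 encodes the monocyte attractant that binds Ccr2. At day 1 it was at 4.26, 3.55 and 10.2 TPM on the sham side and at 10.8, 29.5 and 10.9 TPM on the denervated side (replicates 1 to 3). At day 3 the sham samples held 6.13, 9.47 and 7.85 TPM and the denervated samples 14.6, 18 and 21.6 TPM. At day 7 the values were 11.2, 7.02 and 6.05 TPM against 11.4, 8.57 and 9.19 TPM. The sides did not overlap at days 1 and 3, and they overlapped at day 7.

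Ccl2 was higher on the denervated side in 9 of 9 mice, the only member to be so, and 1.81% of other genes were. Its log2 difference over all days was 0.95 ± 0.24 (SE, n = 9 per side, limma adjusted p = 0.041). In a fit blocked by mouse the difference was the same and the limma adjusted p of 0.080 missed the threshold. Without a given mouse the adjusted p lay between 0.033 and 0.13, and it stayed under 0.05 only without replicate 3 of day 1 or replicate 1 of day 7.

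Taken day by day, Ccl2 differed by 1.41 ± 0.52 (log2, SE, n = 3 per side) on day 1 (limma adjusted p = 0.999). The difference was 1.16 ± 0.20 on day 3 (limma adjusted p = 0.056). On day 7 it was 0.29 ± 0.24 (limma adjusted p = 0.69). Blocked by mouse, the fit of day 3 gave an adjusted p of 0.035, which passed. The difference was 1.12 smaller at day 7 than at day 1 on the log2 scale, and the test of that change gave an unadjusted p of 0.060 and a limma adjusted p of 0.72. Without replicate 2 the difference at day 1 was 0.67.

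Ccl7 encodes another ligand of Ccr2 and lies beside Ccl2 (chr11:82035571-82037453 for Ccl2 and chr11:82045712-82047525 for Ccl7, both on the plus strand, GRCm38). On the sham side it was at 3.23, 6.29 and 11.4 TPM at day 1, 4.11, 8.67 and 7.13 TPM at day 3, and 6.67, 3.52 and 6.28 TPM at day 7. The denervated side had 8.86, 26.3 and 7.85 TPM at day 1, 24.1, 17.2 and 16.1 TPM at day 3, and 7.9, 5.72 and 10.7 TPM at day 7. The sides were apart at day 3 alone, and the denervated side was higher in 8 of 9 mice. Over all days the log2 difference was 0.99 ± 0.27 (limma adjusted p = 0.058), and at day 3 it was 1.5 ± 0.28 (adjusted p = 0.071), so Ccl7 did not pass.

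**Figure D2:**
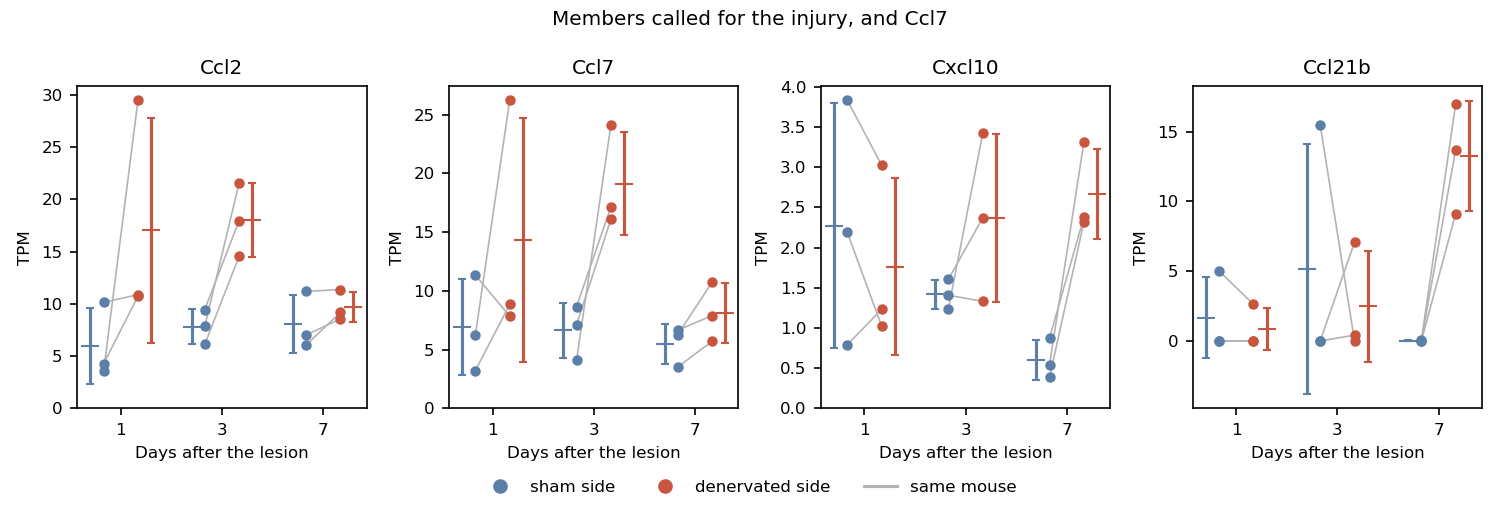
TPM of Ccl2, Ccl7, Cxcl10 and Ccl21b by day, with a point per sample, grey lines joining the 2 sides of a mouse, and the mean with its SD beside each group of 3. Ccl2 and Ccl7 are highest on the denervated side at days 1 and 3, whereas Cxcl10 and Ccl21b are apart at day 7.

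The receptor of these ligands, Ccr2, did not pass. It was at 1.81, 7.23 and 9.32 TPM in sham and 3.01, 3.62 and 3.75 TPM in denervated samples at day 1. At day 3 it was at 5.78, 4.01 and 2.87 TPM against 3.22, 6.96 and 6.63 TPM, and at day 7 at 5.44, 3.53 and 5.45 TPM against 7.15, 4.06 and 9.41 TPM. Its log2 difference over all days was 0.09 ± 0.27 (limma adjusted p = 0.93). The summed level of 10 macrophage and monocyte markers, all of them detected, was 51.9 to 273 TPM in sham and 86.1 to 119 TPM in denervated samples at day 1, and 128 to 273 TPM against 168 to 324 TPM at day 3. Of these 10 markers 0 passed over all days, with 1 under an unadjusted p of 0.05 and 6 below 0 (limma).

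At single days few members passed. At day 1, 0 of 39 tested members passed, 1 of them under an unadjusted p of 0.05 (limma), and 0% of all genes passed. At day 3, 0 of 41 passed, 2 of them under an unadjusted p of 0.05 (Ccl2 and Ccl7), and 1.45% of all genes passed. At day 7, 2 of 43 members passed, Cxcl10 and Ccl21b, both higher on the denervated side, and 1.53% of all genes passed. Both were under 1 TPM in every sham sample and entered the test only through the 3 denervated samples, so this filter favoured a difference and the count is given as a description. Denervated samples all lay above sham samples for 1 member at day 1, 2 at day 3 and 3 at day 7 (other genes 5.33%, 11% and 10.2%), and all below for 0, 1 and 1 (other genes 4.14%, 9.4% and 6.68%).

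The mice of day 1 went opposite ways. There 34 of 39 tested members were higher on the denervated side in replicate 1 and 6 of 39 in replicate 3, as for Pf4, with log2 differences of 1.43 and -1.77. In the fit 26 of the 39 were below 0, with a median log2 difference of -0.15, where the median over all genes was 0.01 and 51.6% of genes were above 0. At day 3 the split was 20 above to 21 below, with a median of 0.00 (all genes -0.01, 47.3% above 0), and 12, 21 and 28 of 41 were above 0 in the 3 mice. At day 7, 37 of 43 were above 0 and the median was 0.33, where the median over all genes was 0.04 and 56.1% of genes were above 0. In the 3 mice of that day 27, 32 and 33 of the 43 were above 0.

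All 9 signalling receptors tested at day 7 were above 0 (log2 differences of 0.14 for Cx3cr1 to 0.65 for Ccr4, median 0.43) and all 7 tested at day 1 were below 0 (median -0.28), yet 0 of them passed at either day and 0 were under an unadjusted p of 0.05 (limma). In replicate 1 of day 1 all 7 were above 0. Macrophage and monocyte markers moved with them, with 9 of 9 tested below 0 at day 1 (median -0.39) and 9 of 10 above 0 at day 7 (median 0.42). So did T cell markers, with 5 of 5 below 0 and then 5 of 5 above (medians -0.41 and 0.24). Mast cell markers did not, with 5 of 5 below 0 at both days (medians -0.27 and -0.17). Of 2 NK cell markers tested, 2 were below 0 at day 1 and 1 at day 7. The part of all these markers in the signs of the receptors was not tested. Members share samples and cell types, so these counts describe these samples.

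**Figure D3:**
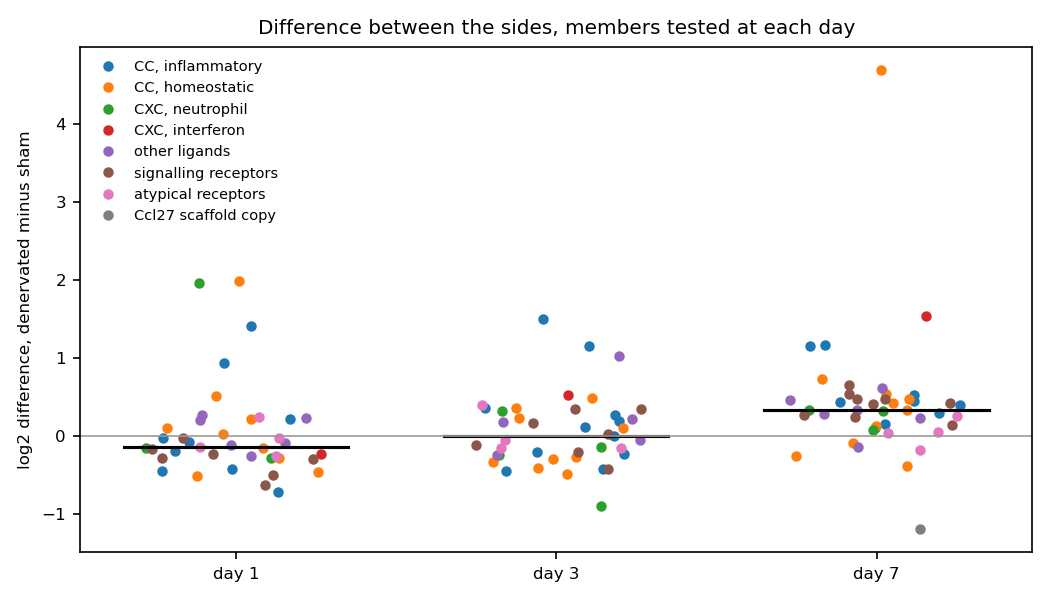
Log2 difference of denervated minus sham, on log2(TPM + 0.5), for the 39, 41 and 43 members tested at days 1, 3 and 7, coloured by role, with a black bar at the median. The medians are -0.15, 0.00 and 0.33 in that order of days, and the topmost point of day 7 is Ccl21b.

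Whether the difference of the sides changed between days was tested in 39 members. From day 1 to day 3, 0 members passed and 0 were under an unadjusted p of 0.05 (limma; 0.122% of all genes passed). From day 1 to day 7, 0 passed and 4 were under 0.05 (0.163% of all genes passed). From day 3 to day 7, 0 passed and 1 was under 0.05 (0% of all genes passed).

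At day 7 Cxcl10 was at 0.542, 0.874 and 0.388 TPM on the sham side and at 3.31, 2.38 and 2.32 TPM on the denervated side. The log2 difference was 1.53 ± 0.27 (SE, n = 3 per side, limma adjusted p = 0.049), in a test the gene entered only through its denervated samples, and the fit blocked by mouse gave 0.056, which did not pass. At day 1 the sham samples were at 2.19, 0.792 and 3.83 TPM and the denervated samples at 1.03, 1.23 and 3.03 TPM. At day 3 they were at 1.24, 1.41 and 1.61 TPM against 3.42, 1.33 and 2.37 TPM. The denervated samples thus stayed between 1.03 and 3.42 TPM at every day, and the 3 sham samples of day 7 were among the 4 lowest of all 18. Without any single mouse of day 7 the call was lost, with adjusted p from 0.15 to 0.53. Cxcl9, the other interferon-induced ligand, was under the filter, at a mean of 0.615 TPM.

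Ccl21b at day 7 was listed at 0.043, 0.0036 and 0 TPM in sham and at 17, 13.7 and 9.13 TPM in denervated samples (limma adjusted p = 0.0021). It too entered the test only through the denervated samples, and without replicate 1 or 2 the adjusted p was 0.070 or 0.092. At day 3 the order was different, with 0, 15.5 and 0 TPM in sham and 7.09, 0 and 0.427 TPM in denervated samples. Ccl21b and Ccl21a are near-identical, and estimated reads can be split unevenly between such copies. Summed over the Ccl21 genes, day 7 samples held 55.8, 22.7 and 51.3 TPM in sham and 72.4, 51.9 and 91.5 TPM in denervated samples. The denervated side was then higher in each of the 3 mice, the groups overlapped, and the sum did not pass.

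Blocked by mouse, the fit of day 7 called 2 further ligands and no longer Cxcl10, and it called 328 of all 15081 genes tested, against 230 without the block. Ccl8 was at 76.7, 35.9 and 200 TPM in sham and at 187, 91.7 and 359 TPM in the denervated samples of the same mice, a log2 difference of 1.15 (limma adjusted p = 0.59 without the block and 0.020 with it). Ccl12, the mouse ligand of Ccr2 that lies near Ccl2, was at 3.01, 1.06 and 6.4 TPM against 8.91, 3.37 and 11.1 TPM, a log2 difference of 1.16 (adjusted p = 0.52 without and 0.049 with the block). Values differed much between the mice, whereas in each mouse the denervated side was more than 1.5 times the sham side for both ligands. The summed macrophage markers at day 7 were 221, 131 and 288 TPM in sham and 312, 235 and 384 TPM in the denervated samples of the same mice, and their part in the result was not tested.

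The other ligands of the CC class did not pass for the injury. The counts that follow cover whole classes, so Ccl2, Ccl7, Ccl8 and Ccl12 are among the inflammatory CC ligands. Of 11 inflammatory CC ligands, 9 were tested over all days, 8 of them above 0 with a median log2 difference of 0.12. Of 11 homeostatic and epithelial CC ligands 9 were tested, with 4 above 0 and a median of -0.03. Of all genes 51.8% were above 0 in this comparison. As grouped here, Ccl9, Ccl24, Ccl5, Ccl3 and Ccl4 belong to the former, and Ccl19, Ccl25, Ccl17, Ccl20, Ccl22, Ccl1 and Ccl28 to the latter. The latter class is mixed, since Ccl1 and Ccl20 can also be counted as inflammatory, and Ccl20 is so named below. At day 7 all 9 inflammatory CC ligands tested, the 4 named first included, were above 0 (median 0.44), where 56.1% of all genes were above 0. None of them passed without the block. Ccl25, the ligand of Ccr9, was lower in all denervated samples at day 7, at 5.9, 5.59 and 4.15 TPM against 6.52, 7.48 and 6.81 TPM in sham (log2 difference -0.39, limma adjusted p = 0.40).

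Among the other ligands, Cxcl12 had a log2 difference of 0.30 ± 0.13 over all days and of 0.46 ± 0.19 at day 7 (limma adjusted p = 0.29 and 0.40). Its signalling receptor Cxcr4 was at 5.61 to 9.54 TPM in sham and 5.26 to 8.22 TPM in denervated samples, with a log2 difference of -0.05 (limma adjusted p = 0.92). Ackr3, the atypical receptor that clears Cxcl12, was at 14.2 to 22.4 TPM in sham and 11.1 to 20.5 TPM in denervated samples, with a log2 difference of -0.16 (adjusted p = 0.47). Cx3cl1, the membrane-bound ligand of Cx3cr1, stayed between 6.21 and 11 TPM in all 18 samples. Xcl1 and Cxcl14 did not pass over all days, nor did Ackr1, Ackr2 and Ackr4, and neither did the leukocyte receptors Ccr4, Ccr9, Cxcr2 and Cxcr6. The receptors Ccr1 and Cx3cr1 were under the filter over all days and were not tested there. The means of these 6 leukocyte receptors ran from 0.902 TPM for Cx3cr1 to 1.98 TPM for Cxcr6.

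Several inflammatory ligands were high in a single sample. Cxcl5, a neutrophil attractant, was at 70.2 TPM in the denervated sample of replicate 2 at day 1 and at 0.289 to 1.88 TPM in the other 17. Cxcl1 peaked in that sample too, at 46.1 TPM against 0.335 to 7.07 TPM elsewhere. The cytokine Il6 was at 9.52 TPM in that sample and at 0.682 TPM or less in the others, and Ccl2 and Ccl7 had their highest values there. The sham sample of the same mouse was at 1.16 TPM for Cxcl1 and 0.618 TPM for Cxcl5.

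A different set was highest in the sham sample of replicate 3 at day 1. Cxcl2 was at 33.4 TPM there and at 8.49 TPM or less in all others, Ccl4 at 9.08 TPM (next 3.04), Ccl3 at 6.82 TPM (next 2.57), Ccl5 at 11.9 TPM (next 4.45) and Ccl20 at 12.9 TPM (next 7.49). Il1b, a cytokine that induces these ligands, was at 27.6 TPM in that sample and at 9.09 TPM or less in the others. Cxcl3 was high in both samples, at 4.88 TPM in this one and 4.31 TPM in the denervated sample of replicate 2. Cxcl17, a mucosal ligand, was at 27.8 TPM in the denervated sample of replicate 1 at day 3 and at 2.97 TPM or less in the rest.

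As a sum, neutrophil markers were also higher in the 2 samples of day 1 with these peaks than in the rest of that day. Their summed level over 8 genes, of which 5 had a mean of at least 1 TPM, was 24.4 TPM in the denervated sample of replicate 2 and 40.6 TPM in the sham sample of replicate 3, against 4.42 to 8.46 TPM in the other 4 samples of day 1. The marker Mpo went the other way, at 2.15 and 1.36 TPM in these 2 samples against 2.61 and 2.71 TPM in sham replicates 1 and 2. The sum was highest, at 51.3 and 46.5 TPM, in the denervated and sham samples of replicate 1 at day 3. Retnlg alone was at 34.5 and 30.7 TPM there. In those samples Cxcl1 was at 1.23 and 1.56 TPM and Cxcl5 at 0.289 and 0.413 TPM. Cxcl2 was at 3.98 and 3.58 TPM and Cxcl3 at 1.62 and 1.02 TPM. The defining gene Ly6g was at 0 in 7 of 18 samples and was highest, at 1.11 TPM, in the denervated sample of replicate 2 at day 1. The part of these markers in the peaks was not tested. Cxcr2, the receptor of Cxcl1, Cxcl2, Cxcl3 and Cxcl5, stayed between 0.882 and 3.59 TPM.

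**Figure D4:**
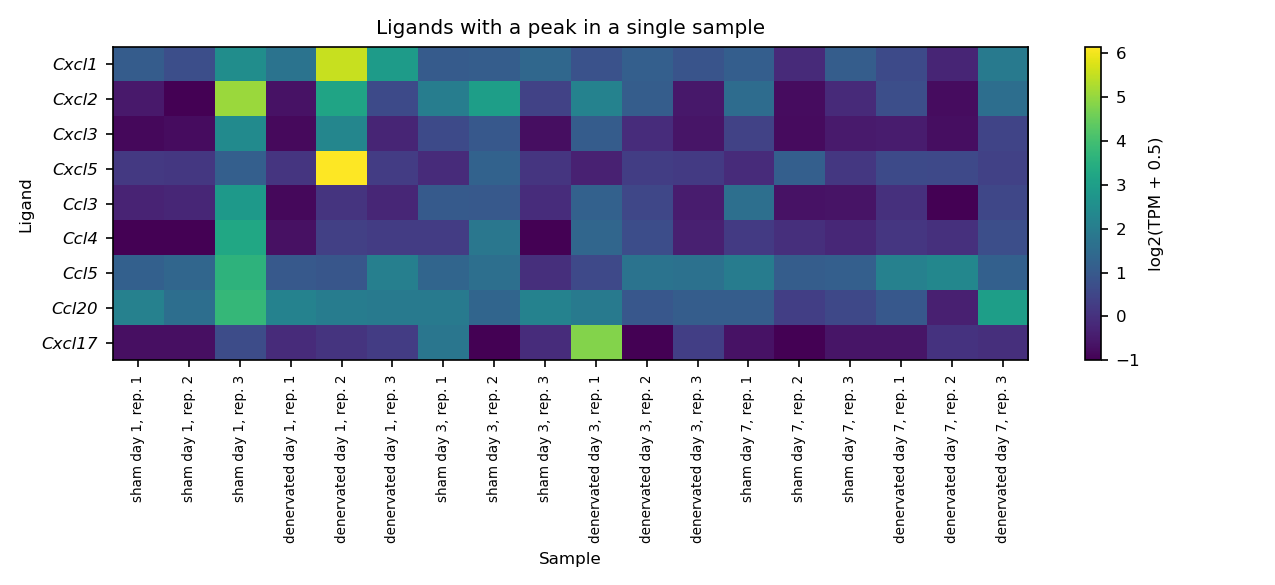
Heat map of log2(TPM + 0.5) for 9 ligands (rows) in the 18 samples (columns, by day and side). Cxcl5 and Cxcl1 are bright in the denervated sample of replicate 2 at day 1, at 70.2 and 46.1 TPM, Cxcl2, Ccl3, Ccl4, Ccl5 and Ccl20 in the sham sample of replicate 3 at day 1, and Cxcl17 in the denervated sample of replicate 1 at day 3.

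The days were compared within each side. On the denervated side 4 of 39 members passed between day 1 and day 3, where 11.6% of all genes passed, and 6 of 39 between day 1 and day 7, where 21.3% of all genes passed, so the members' share was near or under that of all genes. Between day 3 and day 7, 0 members passed, 9 were under an unadjusted p of 0.05 (limma), and 0.211% of all genes passed. On the sham side 0 of 38 members passed between any pair of days (limma), with 6, 10 and 0 under an unadjusted p of 0.05 for day 3 minus day 1, day 7 minus day 1 and day 7 minus day 3. Of all genes 0.0818%, 0.00682% and 0.0136% passed there.

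Ccl8 had the largest rise apart from Ccl21b. On the denervated side it was at 17, 32.7 and 27.4 TPM at day 1, 31.2, 102 and 97.3 TPM at day 3, and 187, 91.7 and 359 TPM at day 7. The log2 change from day 1 to day 7 was 2.86 ± 0.58 (SE, n = 3 per day, limma adjusted p = 0.011), with no overlap. On the sham side the change was 1.26 ± 0.86 (adjusted p = 0.53), from 8.71, 52 and 84.8 TPM to 76.7, 35.9 and 200 TPM. The difference between these changes was not past the threshold (adjusted p = 0.82), so the rise is not shown to be particular to the lesion.

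Pf4 and Ccl11 rose by day 3 and stayed high. Pf4 on the denervated side went from 16.6, 23.9 and 15.1 TPM at day 1 to 57.4, 67.5 and 97.5 TPM at day 3 and 76.5, 44.2 and 129 TPM at day 7, with log2 changes of 1.96 ± 0.37 and 2.03 ± 0.37 from day 1 (limma adjusted p = 0.015 and 0.0076). Ccl11 went from 22.5, 26.4 and 27.8 TPM to 40.5, 51.1 and 58.7 TPM and then 54.2, 42.4 and 56.6 TPM, with log2 changes of 0.95 ± 0.17 and 0.98 ± 0.17 (adjusted p = 0.011 and 0.0057). The call of Pf4 at day 3 was lost without replicate 3 of day 1, or replicate 2 or 3 of day 3, with adjusted p of 0.054 to 0.057, and that of Ccl11 without replicate 2 of day 3 (0.051). Later samples were all above those of day 1 for both genes. The sham changes to day 7 were 1.42 ± 0.78 for Pf4 and 1.10 for Ccl11 (adjusted p = 0.44 and 0.28), where replicate 1 of day 1 was at 5.86 and 11.4 TPM.

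Ccl17, Ccl27a and Cxcl16 fell on the denervated side. Ccl17, made by dendritic cells and keratinocytes as a ligand of Ccr4, was at 9.02, 12.5 and 8.41 TPM at day 1, 1.77, 2.5 and 3.28 TPM at day 3, and 3.9, 1.14 and 5.28 TPM at day 7, a fall by 1.81 and 1.57 on the log2 scale (SE 0.43 for both, limma adjusted p = 0.032 and 0.034). Without single samples the call at day 3 was kept in 3 of 9 fits, those without a sample of day 7 (adjusted p up to 0.097 in the others). The call at day 7 was kept in 4 of 9 and was lost without any sample of day 1, replicate 2 of day 3 or replicate 1 of day 7 (adjusted p up to 0.10). On the sham side it was at 7.02, 15.1 and 16.7 TPM at day 1, 0.798, 1.5 and 4.18 TPM at day 3 and 5.03, 1.13 and 1.83 TPM at day 7, a log2 change to day 7 of -2.20 ± 0.59 (adjusted p = 0.20). Day 1 samples were thus the highest on each side.

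Ccl27a fell by 1.06 on the log2 scale from day 1 to day 7 (SE 0.21, limma adjusted p = 0.011), from 244, 181 and 158 TPM to 87.3, 118 and 74.7 TPM, with 148, 172 and 127 TPM at day 3. On the sham side the change was -0.69 ± 0.33 (adjusted p = 0.38). Cxcl16 fell by 0.63 from day 1 to day 3 (SE 0.12, adjusted p = 0.014, and 0.056 or 0.054 without replicate 3 of day 1 or of day 3), from 22.7, 22 and 25.1 TPM to 15.6, 15.8 and 13.2 TPM, and stood at 18.9, 17.1 and 21.4 TPM at day 7. Sham samples of Cxcl16 were at 23.9, 22.9 and 39.1 TPM at day 1 and 20.25, 16.4 and 16.9 TPM at day 3. At day 7 they were at 15.4, 14.1 and 17.3 TPM. Both sides were thus lower at day 3 than at day 1, and the fall is not shown to be particular to the lesion. Ccl21b also passed from day 1 to day 7 on the denervated side (limma adjusted p = 0.031), with the same limit on near-identical copies. The call was kept in 4 of 9 fits without single samples. There it was listed at 0, 3.2e-07 and 2.64 TPM at day 1 and at 7.09, 0 and 0.427 TPM at day 3. It thus met the filter mainly through the samples of day 7, where it was high, so the filter favoured this call.

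**Figure D5:**
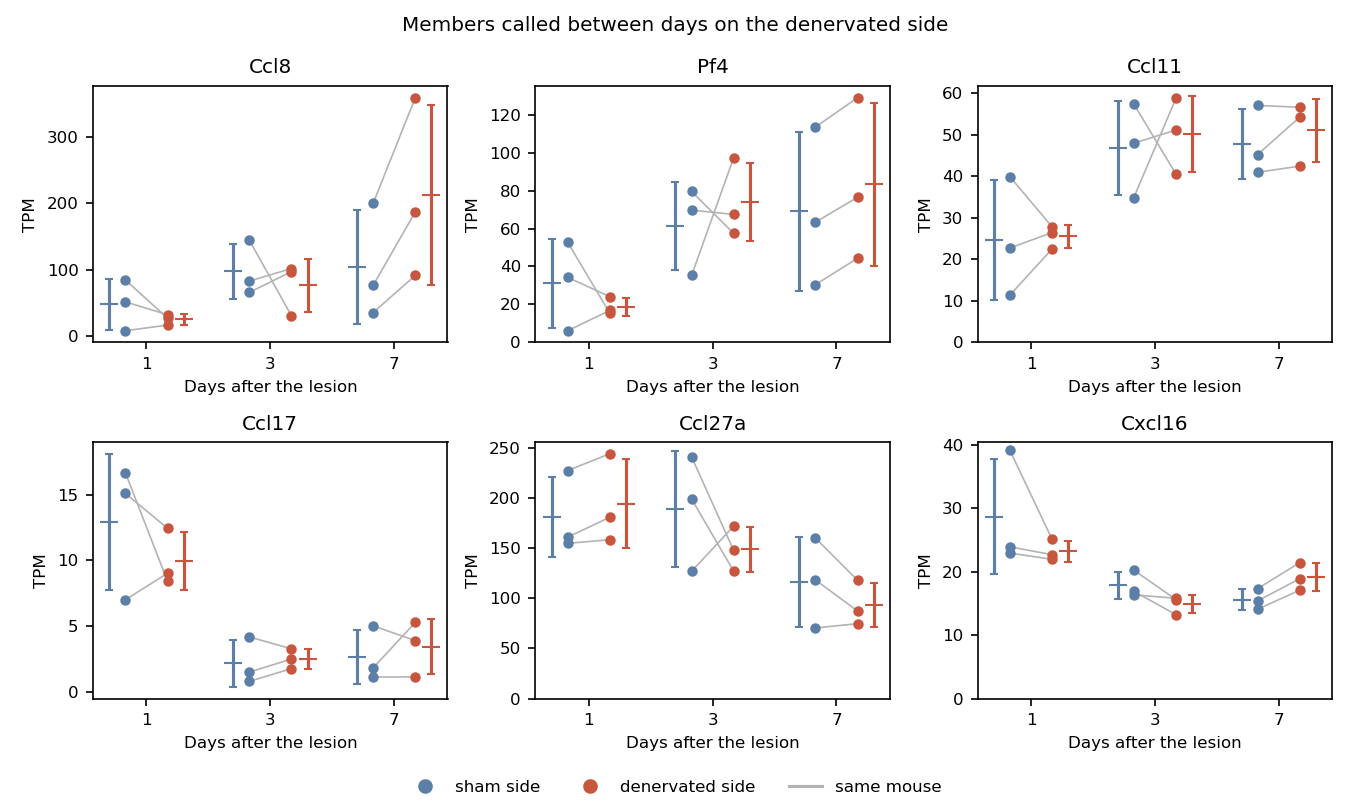
TPM of 6 ligands by day, with a point per sample (blue sham, red denervated), grey lines joining the 2 sides of a mouse, and the mean with its SD for each group of 3. Ccl8, Pf4 and Ccl11 are lowest on the denervated side at day 1, and Ccl17, Ccl27a and Cxcl16 are highest at day 1, with lower sham means at day 7 than at day 1 as well.

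Cell type markers moved with the days on both sides, and passed the test on the denervated side. There, from day 1 to day 7, 6 of 9 macrophage and monocyte markers rose, led by Adgre1 (log2 change 2.25) and C1qb (1.86), and their summed level went from 86.1 to 119 TPM to 235 to 384 TPM. Of the mast cell markers 3 of 5 rose, with Cma1 at 2.28 and Cpa3 at 2.23, as did 5 of 6 skeletal muscle markers, 4 of 5 of endothelium and 3 of 3 of adipocytes. Of 4 keratinocyte markers 2 were above 0 and 2 below (median log2 change -0.08), and 1 passed, Krt14 of the basal epidermis, which fell by 0.99 on the log2 scale. Of these markers 0 passed in sham samples, yet the median log2 changes of mast cell markers were 1.92 in sham and 2.19 in denervated samples, those of skeletal muscle 1.36 and 1.29, of endothelium 0.80 and 0.95, of adipocytes 2.29 and 3.12, and of macrophages 0.60 and 1.26. In sham samples 2 mast cell, 3 skeletal muscle, 4 endothelial, 3 adipocyte, 0 macrophage and 1 keratinocyte marker were under an unadjusted p of 0.05 (limma). Summed skeletal muscle markers on the denervated side were 4814 to 10630 TPM at day 1 and 17580 to 21550 TPM at day 7. The part of these changes in the results between days was not tested. Of the platelet markers, 2 of 4 rose from day 1 to day 3, Gp9 and Ppbp, beside Pf4.

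Genes of the pathway around the receptors were tested for the injury over all days, where 3.1% of all genes passed (457 of 14757). The lists are short, so the counts that follow are a description. Of 20 genes of signalling below chemokine receptors, 19 were tested over all days, and 1 passed, Prex1, which encodes a Rac activator (log2 difference 0.47 ± 0.11, limma adjusted p = 0.026). Of 10 genes of leukocyte rolling and adhesion, 8 were tested, 0 passed and 0 were under an unadjusted p of 0.05 (limma). Of 18 inducers and NF-κB genes, 14 were tested and 1 passed, Nfkb2, which encodes a subunit of noncanonical NF-κB (0.34 ± 0.08, adjusted p = 0.023).

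Between day 1 and day 7 on the denervated side, Rac2, the Rac of leukocytes, rose by 1.46 on the log2 scale, Dock2 by 0.84 and Prex1 by 0.58, and Ptk2b fell by 0.62. Itgb2, the beta chain of leukocyte integrins, rose by 1.17. The NF-κB inhibitor genes Nfkbia and Nfkbiz fell by 0.30 and 0.45, and Rela fell by 0.32 (all past the threshold by limma). Of 18 signalling genes tested, 3 thus rose and 1 fell. Of 8 adhesion genes 1 rose, and of 14 inducer and NF-κB genes 3 fell. Of all genes 21.3% passed in this comparison, so these shares were near or under that of all genes. Nfkb2 rose by 0.61 to day 3 and fell by 0.70 from day 3 to day 7.

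Over the 18 samples the gene with values most like those of Ccl2 on the log2 scale was Ccl7 (Pearson r = 0.84, Spearman rho = 0.83). Among genes that are no member, Timp1, Pdpn, Egln3, Klhl30 and Tubb6 followed, with r from 0.82 to 0.79 and rho from 0.81 to 0.69, and without the 2 samples farthest from the median of Ccl2 their r was 0.74 to 0.85. The samples share mice, days and sides, and the correlations are given as a description.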

How the data were processed

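Per the labels and the study's methods, the authors made TruSeq libraries, called bases with bcl2fastq, removed duplicates, trimmed reads and pseudoaligned them to mouse cDNA (GRCm38) with kallisto 0.43.1 before sleuth. In the deposited table the signal is TPM, scaled between samples by the authors (sums of 833186 to 1143839). The 113194 transcripts were matched to GENCODE M21 (98.46%) and summed per gene. Tests had been set for plain TPM and were kept. Depth was estimated from the steps of low values, 69.8% to 83.6% of which lay within 0.1 of a whole read (20% if spread evenly), and covers counting error only.

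Genes with at least 1 TPM in at least 47% of the samples were tested with limma 3.58.1 (R 4.3.3, mean-variance trend) on log2(TPM + 0.5), a scale that understates changes of low genes, with Benjamini-Hochberg adjustment over all genes and 0.05 as the threshold. The fits were checked on simulated data for the size of the estimated changes. The simulated samples were independent, so that check does not cover the p-values of unblocked fits on paired sides. The 2 sides come from the same mouse. Deviations of the sides of a mouse correlated at 0.16 to 0.57 over all genes, and the main fits had no block for the mouse, as in the study. Members, gene lists and tests were chosen with earlier results of these data known. Every member but 1, which is not reported here, was named, with sample values for those past a test of the injury, the 12 of highest mean and their partners. Python 3.11.15 was used with pandas 2.3.3, numpy 2.4.6 and matplotlib 3.10.9.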

Additional observations from a re-analysis of the deposited data

Results flagged for a closer look

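In 3 ligands every mouse of one day had the sides in one direction and every mouse of another day in the opposite direction. How many other genes did so was not counted. The number thus describes these samples and is not a result about the members. Cxcl14 had mean log2 differences, denervated minus sham, of 0.20 at day 1 and 0.21 at day 3, higher in all 6 mice, and of -0.14 at day 7, lower in all 3. Cxcl16 had -0.25 at day 1 and -0.25 at day 3, and 0.28 at day 7. Ccl5 had -0.72 at day 1 and 0.45 at day 7. The changes between days did not pass the test of the difference itself (limma adjusted p = 0.83, 0.69 and 0.83 for Cxcl14, Cxcl16 and Ccl5 from day 1 to day 7).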

How the results depend on the processing

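Of 450 values of single members under alternatives, 396 kept their direction and their side of the threshold, 48 kept the direction and were past the threshold no more, 6 were past it only in the alternative, and 0 reversed. These values include members that were not called and kept their side by staying uncalled. Of the injury calls, that of Ccl2 over all days was lost in 9 of 18 alternatives. At day 7, the call of Cxcl10 was lost in 9 of 12 and that of Ccl21b in 3 of 12. Of 232 counts, 202 stayed within 1.5 times. Over all days the count of members past the threshold was 1, and it was 0 with a filter of TPM above 0, 0 with a fold change of at least 2, 0 with the mouse as a replicate block, 2 (Ccl2 and Ccl7) after rescaling to an equal sum, and 0 to 2 without single mice. At day 3 it went from 0 to 1 (Ccl2) with a minimum of 5 TPM and to 1 (Ccl2) with the block. At day 7 it was 2 and became 1 with a pseudocount of 0.1, 1 with TPM above 0, 1 with 5 TPM, 1 after rescaling to an equal sum, 1 with median-of-ratios factors, 1 with the Ccl21 and the Ccl27 copies summed (chosen after seeing the data), 0 in a fit of all 18 samples, and 0 to 1 without single mice. On the sham side from day 1 to day 7 it went from 0 to 1 (Cxcl16) in a fit of all 18 samples. On the denervated side from day 1 to day 3 it was 4 and became 2 with a fold change of at least 2, 1 in a fit of all 18 samples, and 1 to 5 without single samples. The mouse as a block changed no other call than those of Ccl2, Ccl8, Ccl12 and Cxcl10. The causes were not tested. Depth limits members of low level, where a value rests on few reads, and more so those with short transcripts.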

Other observations

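The members under the minimum mean included receptors of T cells and eosinophils. Ccr10, the receptor of the abundant ligand Ccl27a, had a mean of 0.231 TPM, Ccr6, the receptor of Ccl20, 0.180 TPM, Ccr8 0.172 TPM, and Ccr3, the receptor of Ccl11, 0.0388 TPM with a value above 0 in 10 of 18 samples. Cxcr1 was at 0.0296 TPM, with a value above 0 in 7 of 18 samples.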
